A study of Canis lupus familiaris with 45 samples.

Results

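Macrophages of subcutaneous fat were followed through 10 of their genes, CD68, CSF1R, LYZ, MRC1, CD163, MSR1, MARCO, SIGLEC1, TREM2 and SPP1. Every probe set of the canine array that the platform table gives 1 of these symbols was taken, which made 23 probe sets of 42924 on the array. The adipocyte hormone gene LEP (leptin) was set beside them. Intact female beagles, 4 years old, gave subcutaneous fat after an overnight fast at weeks 0, 4, 8, 12 and 24, with 1 array per dog and week and 45 arrays in all. The ad libitum group (n = 5, animal ids 2, 5, 6, 7 and 8) ate without restriction once the week-0 sample had been taken. The control group (n = 4, animal ids 1, 3, 4 and 9) was fed to hold its body weight. Both groups were randomised and ate the same commercial diet, and no dog carried any genetic change in the labels. The question the design puts to these genes is whether free feeding altered them in fat, and when.

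Macrophages are the main phagocytes of adipose tissue. They live from the growth factors CSF1 and IL34 through the receptor CSF1R, take up dying cells, lipid and iron, and grow in number in the fat of obese mice and people. Resident fat macrophages typically carry the scavenger receptors MRC1 and CD163, whereas the macrophages that gather around dying fat cells in obese mice and people carry the lipid receptor TREM2, the matrix protein osteopontin (SPP1) and much lysosomal protein. Fat was measured as whole tissue, so fewer macrophages and less RNA per macrophage cannot be told apart here.

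Levels are the deposited GCRMA values, read as log2, and a difference is ad libitum minus control, or later week minus week 0, on that scale. A probe set was tested when its value exceeded 4 on at least 4 of the 45 arrays, and it was called past an adjusted p of 0.05 among all 22690 probe sets tested. Probe sets are named by their array identifier without its ending. Of the 23 probe sets, 20 were tested, and they cover 9 genes. MARCO, a scavenger receptor of alveolar and marginal-zone macrophages, had no tested probe set: its 2 probe sets lay between 2.93 and 3.80 on the 45 arrays. The third untested one was a CD163 probe set at 1.81 to 2.77, although the other 3 CD163 probe sets exceeded 4 on all 45 arrays.

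The labels were checked before any comparison. The fat markers were high throughout, with a mean over 12 adipocyte genes of 11.71 to 13.94 in the 25 ad libitum arrays and of 11.63 to 13.61 in the 20 control arrays. Skeletal muscle transcripts stood out on 10 arrays (mean over 22 muscle genes 8.71 to 14.69, against 4.35 to 6.46 on the other 35), 5 of ad libitum and 5 of control dogs. At week 0 they were 3 of the 5 ad libitum and 2 of the 4 control arrays, and at week 4 there were 0. At week 24 they were those of control dogs 3 and 4, and of no ad libitum dog. A change from week 0 therefore also compares arrays that differ in muscle. The expression pattern of 43 arrays matched the labelled dog best. The exceptions were both from week 8, where the sample given as dog 5 (ad libitum) resembled dog 9 (r = 0.91 over 100 probe sets that separate the dogs) and the one given as dog 9 (control) resembled dog 5 (r = 0.80). They were kept as labelled, and leaving them out changed no count of member calls. The actin probe sets, whose 3′ minus 5′ value grows as RNA breaks down, differed between the groups at week 4 (1.75 ± 0.24 in ad libitum, SD, n = 5, and 3.00 ± 0.27 in control dogs, SD, n = 4) and at week 24 (3.51 ± 0.91 and 4.79 ± 1.20 in the same order). The gaps at week 8 (1.74 ± 0.27 and 2.39 ± 0.61) and at week 12 (2.50 ± 0.56 and 1.94 ± 0.45) were smaller.

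At week 24, 2 of the 20 macrophage probe sets differed past the threshold, both labelled TREM2 by the platform table and both higher in ad libitum fat, in a comparison that called 5.46% of all tested probe sets. SPP1, MSR1 and a further TREM2 probe set had positive differences with an unadjusted p below 0.05 and missed the adjusted threshold. MRC1 had negative differences at all 3 of its probe sets, and CD163 at all 3 of its tested ones, none of them called. In the plot of each dog at week 24 the same animals stand high or low in several of these genes.

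**Figure D1:**
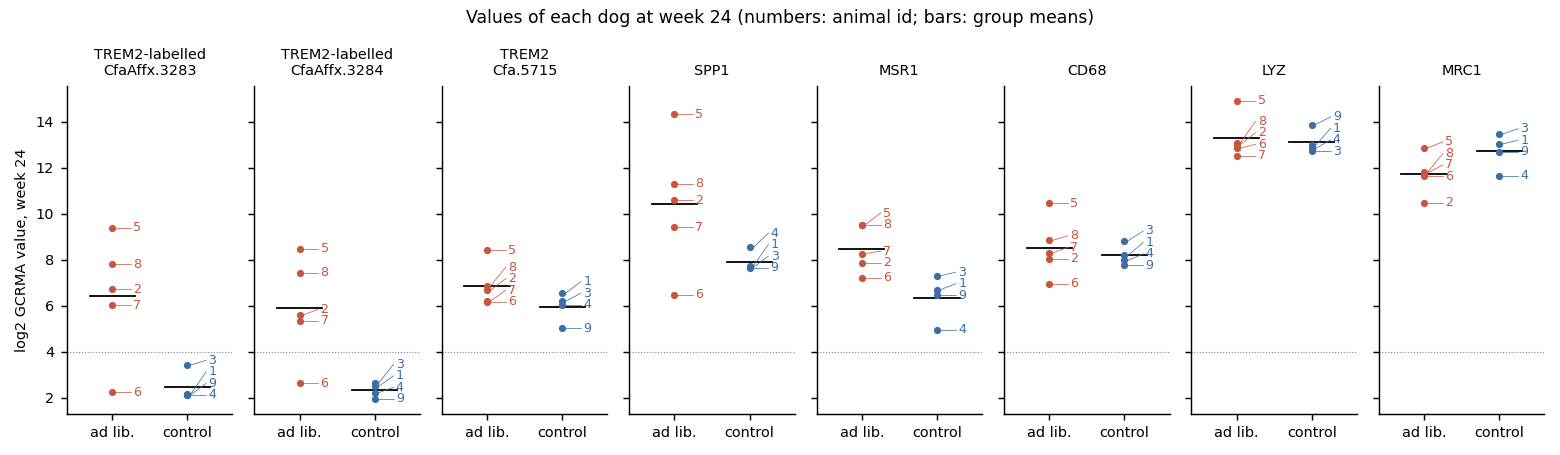
Log2 GCRMA values of 8 probe sets at week 24 (y axis), with the 5 ad libitum dogs left of the 4 control dogs in each panel; points are dogs labelled by animal id, bars are group means, and the dotted line marks the detection limit of 4. Dog 5 is highest and dog 6 lowest among ad libitum dogs in both TREM2-labelled probe sets of the left panels, in SPP1 and in CD68, and all 4 control dogs lie below the limit in those 2 left panels.

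TREM2, a receptor for lipids and lipoproteins on macrophages, was read by 4 probe sets that form separate pairs. Cfa.5715 and CfaAffx.3279 carry the gene identifier 474898, which RefSeq names TREM2, and moved together over the 45 arrays (r = 0.93). CfaAffx.3284 and CfaAffx.3283 carry the identifier 608965, which the RefSeq table used here does not hold, and also moved together (r = 0.93). Between the pairs r was only 0.20 to 0.30, so the second pair is called TREM2-labelled here, and whether it reads the TREM2 transcript was not settled. Both called probe sets belong to this second pair.

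CfaAffx.3283 read 6.71, 9.39, 2.23, 6.01 and 7.80 in ad libitum dogs 2, 5, 6, 7 and 8 at week 24, against 2.17, 3.43, 2.12 and 2.14 in control dogs 1, 3, 4 and 9. Ad libitum dogs 2, 5, 7 and 8 were above every control, and dog 6 lay among the controls. The difference was 3.96 (SE 0.77, limma adjusted p = 0.00354). CfaAffx.3284 read 5.59, 8.47, 2.63, 5.34 and 7.42 in the same ad libitum dogs, against 2.49, 2.63, 2.22 and 1.95 in the same controls. Here too dog 6 read at the level of the highest control, and the difference was 3.57 (SE 0.66, limma adjusted p = 0.00246).

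All 4 control values of both probe sets were under the detection limit, so these differences are no exact folds. CfaAffx.3283 exceeded 4 on 5 of the 45 arrays, 4 of them ad libitum arrays of week 24, and CfaAffx.3284 on 9. A probe set that enters the test mainly through the group where it is high had to differ there, and the pair counts as a description rather than as independent support. Both calls held in 17 of 19 alternative settings. Without the 10 arrays with muscle, which leaves control dogs 1 and 9 at week 24, the differences were 4.28 and 3.69 with limma adjusted p = 0.0870 and 0.0704. With the actin value as a covariate they were 3.43 and 3.06 with limma adjusted p = 0.121 and 0.0996.

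The pair was near background in almost all earlier samples. At week 0 CfaAffx.3283 averaged 2.43 ± 0.64 in ad libitum (SD, n = 5) and 3.18 ± 0.78 in control dogs (SD, n = 4), and no array exceeded 4. Before week 24 only ad libitum dog 6 at week 8 exceeded 4 at CfaAffx.3283, with 6.11, and the same array read 5.22 at CfaAffx.3284. The other earlier arrays above 4 at CfaAffx.3284 were those of ad libitum dog 8 at week 8, ad libitum dog 7 at week 12, control dog 4 at week 0 and control dog 9 at week 12, at 4.18 to 5.20. From week 0 to week 24 both probe sets rose in ad libitum dogs, by 3.96 (limma adjusted p = 0.00227) and 3.17 (limma adjusted p = 0.00371), 2 of 20 member probe sets against 4.78% of all tested. Week 24 was a laboratory batch of its own, so this change and the change of batch cannot be told apart, whereas the comparison of the feeding groups lies within that batch. Without the arrays with muscle the rises were 4.06 and 3.81, and neither was called (limma adjusted p = 0.167 and 0.0989).

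The pair with the RefSeq TREM2 identifier behaved otherwise. Cfa.5715 read 6.68, 8.41, 6.17, 6.20 and 6.87 in ad libitum dogs 2, 5, 6, 7 and 8 at week 24, against 6.56, 6.20, 6.04 and 5.02 in control dogs 1, 3, 4 and 9. The groups overlapped, with ad libitum dog 5 the highest and control dog 9 the lowest, and the difference was 0.91 (SE 0.57, limma adjusted p = 0.352). Its partner CfaAffx.3279 differed by 1.61 (SE 0.61, limma adjusted p = 0.108), with a mean of 5.61 ± 0.91 in ad libitum (SD, n = 5) and of 4.01 ± 1.10 in control dogs (SD, n = 4), the lowest of its 10 group means. Over all 45 arrays 18 values of Cfa.5715 lay within 0.1 of its median of 6.68. The highest value of this probe set, 10.52, was that of control dog 3 at week 4, a sample in which CfaAffx.3279 was highest as well, at 8.84. With the summed neutrophil markers this pair had r = 0.58 and 0.63 over the arrays, against -0.17 and -0.23 for the other pair, and the part of neutrophils in it was not tested.

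SPP1, which encodes the secreted phosphoprotein osteopontin, had the widest range of all members. CfaAffx.15042 read 10.58, 14.32, 6.48, 9.41 and 11.30 in ad libitum dogs 2, 5, 6, 7 and 8 at week 24, and 7.74, 7.66, 8.54 and 7.66 in control dogs 1, 3, 4 and 9. Ad libitum dogs 2, 5, 7 and 8 again exceeded every control, and dog 6 was below them all. The difference was 2.52 (SE 1.22, limma adjusted p = 0.211), and at Cfa.9240 it was 2.12 (SE 0.97, limma adjusted p = 0.185), called in 0 of 19 alternatives at either. The order of the 5 ad libitum dogs in SPP1, from dog 5 down through 8, 2 and 7 to dog 6, was also their order in both TREM2-labelled probe sets. Across the 9 dogs of that week SPP1 had r = 0.93 with each of them, and over weeks 0 to 12 (36 arrays) 0.34 and 0.39.

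Earlier, SPP1 was higher in ad libitum than in control fat on average at each week after week 0. At week 4 CfaAffx.15042 read 8.04, 7.76, 6.93, 7.52 and 9.90 in ad libitum dogs 2, 5, 6, 7 and 8, against 5.01, 6.63, 6.17 and 6.39 in control dogs 1, 3, 4 and 9. Every ad libitum value was above every control value, and how many of all probe sets separate the groups in this way was not counted. The difference of 2.76 (SE 1.44) had limma adjusted p = 0.555, in a comparison in which 0.0132% of all probe sets were called. The week-4 arrays of the ad libitum dogs lay in batches 3, 4 and 5 and those of the controls in batches 1 and 2, so no batch holds both groups at that week, and the actin value of RNA breakdown differed as well (1.75 in ad libitum and 3.00 in control dogs). The difference was 1.98 (SE 1.19, limma adjusted p = 0.348) without the batch term of the fit. With actin as a covariate the difference was 2.78 (SE 1.46, limma adjusted p = 0.513). The ad libitum mean at week 4 was 8.03, against 7.67 at week 0, and the control mean 6.05, against 8.66 at week 0. At weeks 8 and 12 single controls spread between 3.60 and 10.38, beyond the ad libitum range of 4.78 to 9.58. Within the 5 laboratory batches that hold weeks 4 to 12, the ad libitum mean exceeded the control mean in 5 of 5, by 1.13 to 3.83, with 1 to 4 arrays a side that often came from different weeks. The widest gap rests on 1 control array, the week-8 array given as dog 9. Without the 2 week-8 arrays that resembled another dog, an alternative chosen after seeing the data, 4 batches held both groups, and the ad libitum mean was higher in 4 of 4, by 1.35 to 1.97.

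MSR1, the class A scavenger receptor that takes up modified lipoproteins, was measured by 1 probe set. At week 24 it read 7.87, 9.53, 7.21, 8.27 and 9.53 in ad libitum dogs 2, 5, 6, 7 and 8, against 6.70, 7.31, 4.95 and 6.46 in control dogs 1, 3, 4 and 9. Ad libitum dog 6 alone lay inside the control range, below control dog 3. The difference was 2.13 (SE 0.73, limma adjusted p = 0.0769), and it passed the threshold in 0 of 19 alternatives, in which it ran from 1.66 to 2.45. All 5 ad libitum dogs had more MSR1 at week 24 than at week 0 (mean change 1.52), against 1 of 4 control dogs (mean change -0.59). Within the batches of weeks 4 to 12 the ad libitum mean was the higher one in 4 of 5, and in 4 of 4 without the 2 week-8 arrays that resembled another dog.

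**Figure D2:**
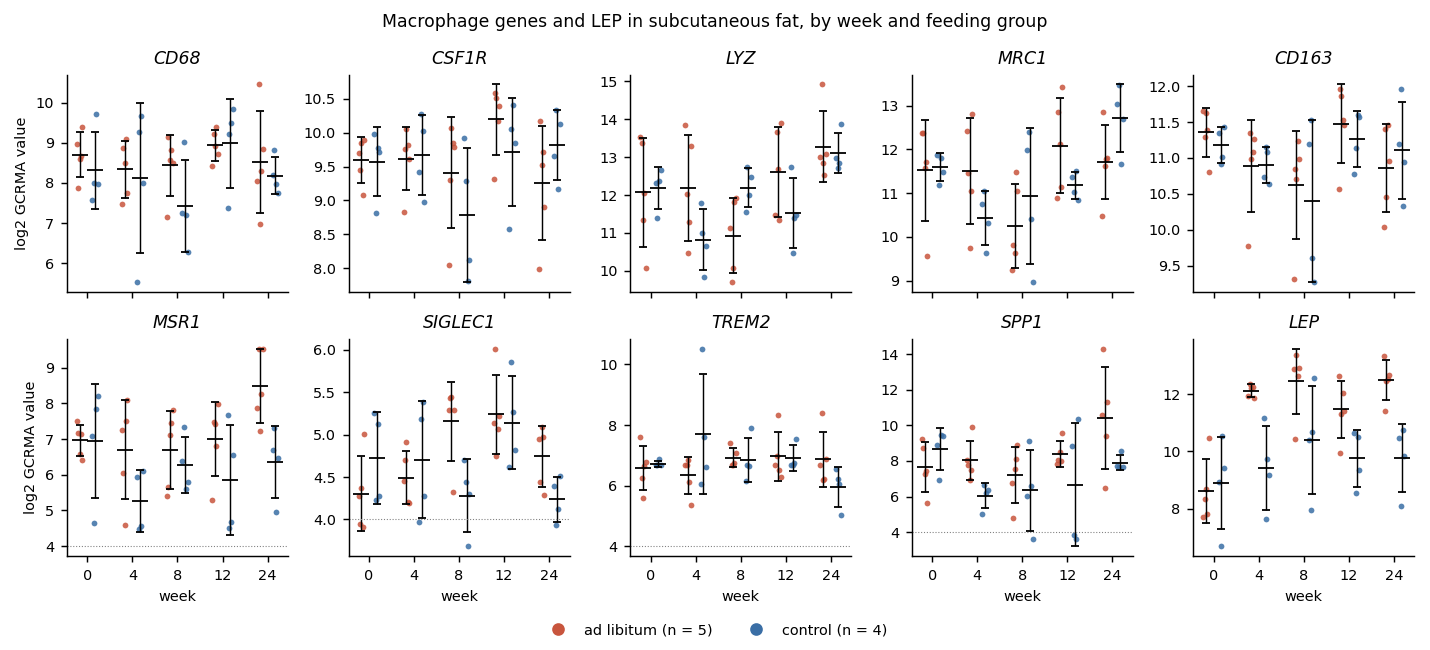
Log2 GCRMA values of the brightest tested probe set of 9 macrophage genes and of LEP (y axis, scaled for each panel) at weeks 0, 4, 8, 12 and 24; points are dogs, ad libitum left of control at each week, bars are means with SD, and the dotted line is the detection limit of 4. The groups overlap in most panels, SPP1 and MSR1 part most at weeks 4 and 24, and LEP is higher in the ad libitum group from week 4 on.

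The general macrophage genes showed no called difference between the feeding groups. CD68, a lysosomal glycoprotein used as a pan-macrophage marker, read 8.04, 10.46, 6.96, 8.30 and 8.85 in ad libitum dogs 2, 5, 6, 7 and 8 at week 24, against 8.19, 8.83, 7.98 and 7.75 in control dogs 1, 3, 4 and 9. Dogs 5 and 6 of the ad libitum group bracketed all others, and the difference was 0.33 (SE 0.66, limma adjusted p = 0.815). Both CD68 probe sets carry the identifier 489476, which the RefSeq table used here does not hold. Their match to CD68 therefore rests on the platform table. CSF1R, the receptor macrophages need to survive, averaged 9.26 ± 0.85 in ad libitum (SD, n = 5) and 9.82 ± 0.52 in control dogs (SD, n = 4), with a difference of -0.57 (SE 0.45, limma adjusted p = 0.479). LYZ, the lysozyme that phagocytes secrete, averaged 13.27 ± 0.94 and 13.10 ± 0.53 in the same order, with a difference of 0.17 (SE 0.67, limma adjusted p = 0.912). RefSeq lists a second dog lysozyme, LYZF2, so the LYZ probe sets may also read a related transcript.

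The group mean of LYZ was highest at week 24 in both feeding groups. In ad libitum dogs they were 12.07, 12.19, 10.93, 12.61 and 13.27 at weeks 0, 4, 8, 12 and 24, and in control dogs 12.19, 10.83, 12.20, 11.52 and 13.10. The SD within a group and week was 0.52 to 1.44. The ad libitum means of weeks 0, 4 and 12 lay within these SDs of each other, whereas the control mean at week 4 stood further below that of week 0 than either SD, and no change of LYZ was called. In the ad libitum group 4 of 5 dogs, and in the control group 4 of 4, had more LYZ at week 24 than at week 0, and at the second LYZ probe set 3 of 5 and 3 of 4. Week 24 was a batch of its own with the highest actin values of both groups, and over the arrays the LYZ probe sets had r = 0.40 and 0.42 with that actin value. The part of either in the LYZ levels was not tested. CSF1R means stayed between 8.79 and 10.20 in all 10 groups, and CD68 means between 7.43 and 8.99, both lowest in control dogs at week 8.

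The resident scavenger receptors had negative differences at week 24, none of them called. MRC1, the mannose receptor, read 10.47, 12.86, 11.62, 11.78 and 11.80 in ad libitum dogs 2, 5, 6, 7 and 8, against 13.04, 13.46, 11.66 and 12.70 in control dogs 1, 3, 4 and 9. Control dog 4 lay among the ad libitum dogs and the other 3 controls near or above the highest of them. The difference was -1.01 (SE 0.59, limma adjusted p = 0.316) at the brightest probe set and -0.75 and -0.57 at the other 2. At week 12 the sign was the opposite, 12.09 ± 1.08 in ad libitum (SD, n = 5) and 11.18 ± 0.31 in control dogs (SD, n = 4), with a difference of 1.29 (SE 0.64, limma adjusted p = 0.452). CD163, the receptor that clears haemoglobin bound to haptoglobin, averaged 10.86 ± 0.61 in ad libitum and 11.11 ± 0.67 in control dogs at week 24, a difference of -0.24 (SE 0.40, limma adjusted p = 0.772).

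MRC1 and CD163 moved with the connective tissue of the sample. Over the 45 arrays MRC1 had r = 0.81 with the mean of 11 fibroblast and preadipocyte markers and -0.65 with the adipocyte markers. CD163 had 0.77 and -0.47, and CSF1R 0.74 and -0.43. At week 24 the fibroblast mean was 12.47 ± 0.65 in ad libitum (SD, n = 5) and 13.36 ± 0.38 in control dogs (SD, n = 4), and the adipocyte mean 13.30 ± 0.90 and 12.34 ± 0.58. The part of these marker shifts in the MRC1 values was not tested. For MSR1 and SPP1 the same correlations with fibroblast markers were 0.19 and 0.24, and for the TREM2-labelled pair -0.05 and 0.02.

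SIGLEC1, the sialic acid receptor CD169 that interferon raises in macrophages, was the faintest tested gene and exceeded 4 on 40 arrays. At week 8 it read 5.29, 5.43, 5.44, 4.33 and 5.29 in ad libitum dogs 2, 5, 6, 7 and 8, against 4.70, 4.44, 3.69 and 4.30 in control dogs 1, 3, 4 and 9. All arrays given as ad libitum except that of dog 7 were above every one given as control. The values of dog 5 and of dog 9 are from the 2 arrays that resembled each other's dog, and without them the difference was 0.74 (SE 0.37, limma adjusted p = 0.359). With all arrays it was 0.89 (SE 0.31, limma adjusted p = 0.0906), and it was called without ad libitum dog 7 (1.14, limma adjusted p = 0.0323). Dog 7 read lowest of its group, so leaving it out had to widen the difference and is no support. From week 0 every ad libitum dog had a higher value at week 8 (mean change 0.85, 5 of 5) and at week 12 (mean change 0.94, 5 of 5), and neither change was called. Over the arrays SIGLEC1 had r = 0.40 with T and NK cell markers, -0.40 with muscle markers and -0.33 with the actin value. Its median was 4.17 on the 10 arrays with muscle and 4.75 on the other 35. Of the 5 ad libitum arrays of week 0, 3 were among those 10. Actin at week 8 was 1.74 ± 0.27 in ad libitum (SD, n = 5) and 2.39 ± 0.61 in control dogs (SD, n = 4). The part of muscle and of RNA breakdown in the SIGLEC1 values was not tested.

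Counted over all 20 tested probe sets, the comparisons between the feeding groups gave calls at week 24 only. At week 0, before the feeding change, limma called 0 of 20 (0% of all probe sets), with 0 at an unadjusted p below 0.05. At week 4 it called 0 where 0.0132% of all were called, with 0 below 0.05. At week 8 it called 0 where 1.42% of all probe sets were called, with 2 below 0.05, SIGLEC1 and the CSF1R probe set Cfa.17361. At week 12 it called 0 where 0.00441% of all were called, and the 2 below 0.05 were MRC1 probe sets. The median difference of the 20 was -0.19, 0.43, 0.49, 0.31 and 0.42 at weeks 0, 4, 8, 12 and 24. Over all tested probe sets it was 0.02, -0.03, 0.08, -0.02 and 0.01.

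The feeding effect, which is how much more the ad libitum than the control mean moved away from week 0, was called by limma for 0 of 20 probe sets at week 4 (0% of all), week 8 (0% of all), week 12 (0% of all) and week 24 (0.022% of all). The counts below an unadjusted 0.05 were 2, 1, 2 and 5. At week 24 they were the TREM2-labelled CfaAffx.3283 (4.52, SE 1.10) and CfaAffx.3284 (3.99, SE 0.94), both with limma adjusted p = 0.171, SPP1 (3.72 and 3.06) and MSR1 (2.21). Both TREM2-labelled probe sets were called when ad libitum dog 6 was left out. That dog read lowest of its group in both at week 24 (2.23 and 2.63), so leaving it out had to widen the difference and is no support. All 4 weekly effects share the week-0 samples, at which 6 of 20 differences were positive, against 53.8% of all tested probe sets. The 20 probe sets read only 9 genes, so they are not independent. Averaged over the 4 weeks, the feeding effect was positive at 17 of 20 (48.5% of all) and called at 0 (0% of all), with 3 below 0.05. The largest was that of SPP1 CfaAffx.15042, 3.14 (SE 1.42, limma adjusted p = 1.00), and that of LEP in the same comparison was 2.03 (SE 0.83).

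Changes from week 0 within a group were few. In ad libitum dogs limma called 0 of 20 at week 4 (0.498% of all, 0 below an unadjusted 0.05), 0 at week 8 (6.73% of all, 1 below 0.05) and 0 at week 12 (0.802% of all, 1 below 0.05). At week 8 the count became 5 without ad libitum dog 8, with MRC1 at -2.13, -2.32 and -2.27 and LYZ at -2.07 and -2.36. Dog 8 had the lowest week-0 value of both genes in its group, 9.55 for MRC1 and 10.08 for LYZ. In control dogs limma called 0 of 20 at week 4 (0.00441% of all), week 8 (0% of all), week 12 (0% of all) and week 24 (7.92% of all). At week 4 there were 6 below an unadjusted 0.05, all negative and from MRC1 (3 probe sets), SPP1 CfaAffx.15042, MSR1 and LYZ Cfa.15305, and at each of them all 4 control dogs had lower values than at week 0. The counts below 0.05 at weeks 8, 12 and 24 were 2, 0 and 1.

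Single dogs of a feeding group differed at 1 CD68 probe set. A joint test of the dogs within their feeding group called 1 of 20 probe sets, where 2.51% of all were called, with 4 below an unadjusted p of 0.05. The called one was CfaAffx.25462, which the platform table gives as CD68 (F = 7.43, limma adjusted p = 0.00641). Control dog 1 read 6.25, 5.59, 5.59, 5.64 and 5.58 at weeks 0, 4, 8, 12 and 24. Every array of the other 8 dogs was higher, at 6.55 or more, and their means ran from 7.32 in ad libitum dog 2 to 8.60 in ad libitum dog 7. Without dog 1 the probe set was no longer called.

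The other CD68 probe set showed this less. At Cfa.13370 control dog 1 read 7.58, 5.53, 7.24, 7.38 and 8.19 over the same weeks, the dogs differed with F = 2.65 (limma adjusted p = 0.313), and at week 24 dog 1 was second among the 4 controls. The probe sets of CD68 otherwise moved together (r = 0.89 over the arrays), the lowest value among genes whose probe sets share 1 identifier, where r ran up to 0.99. LEP also differed between dogs of a group (F = 7.98, limma adjusted p = 0.00394). Since dog 1 is a control, its low values enter the week-24 difference of CfaAffx.25462, 0.96 (SE 0.70, limma adjusted p = 0.434).

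**Figure D3:**
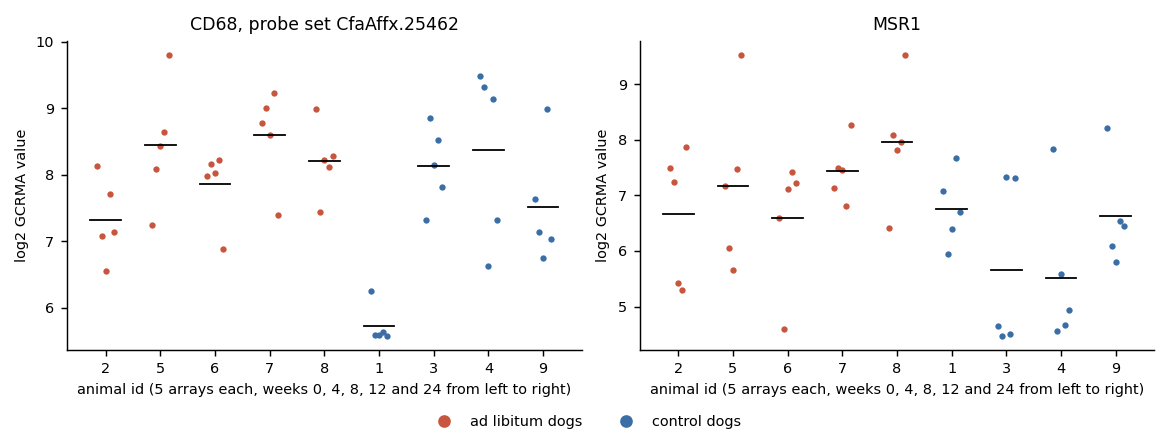
Log2 GCRMA values (y axis) of CD68 probe set CfaAffx.25462 on the left and of MSR1 on the right, by animal id with ad libitum dogs left of control dogs; points are the 5 arrays of a dog in the order of weeks 0, 4, 8, 12 and 24, and bars are dog means. Control dog 1 lies below all other dogs in the CD68 panel, between 5.58 and 6.25, and not in the MSR1 panel.

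Among themselves the 9 measured genes fell into loose, overlapping groups over the 45 arrays. CSF1R and CD163 had r = 0.80, and CD68 had 0.56 and 0.59 with them. LYZ and MRC1 had 0.77, and MRC1 also had 0.58 with CD163 and 0.41 with CSF1R. MSR1 and SPP1 had 0.76, and both had 0.63 or more with LYZ and 0.56 to 0.67 with the TREM2-labelled pair. CD68 had -0.14 with LYZ and 0.11 with MSR1, and CSF1R had 0.07 or less with LYZ, MSR1 and SPP1. The arrays share dogs, batches and weeks, so these values are descriptions. After the mean of each feeding group and week was removed, CSF1R with CD163 stayed at 0.80, LYZ with MRC1 was 0.69 and MSR1 with SPP1 0.66.

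**Figure D4:**
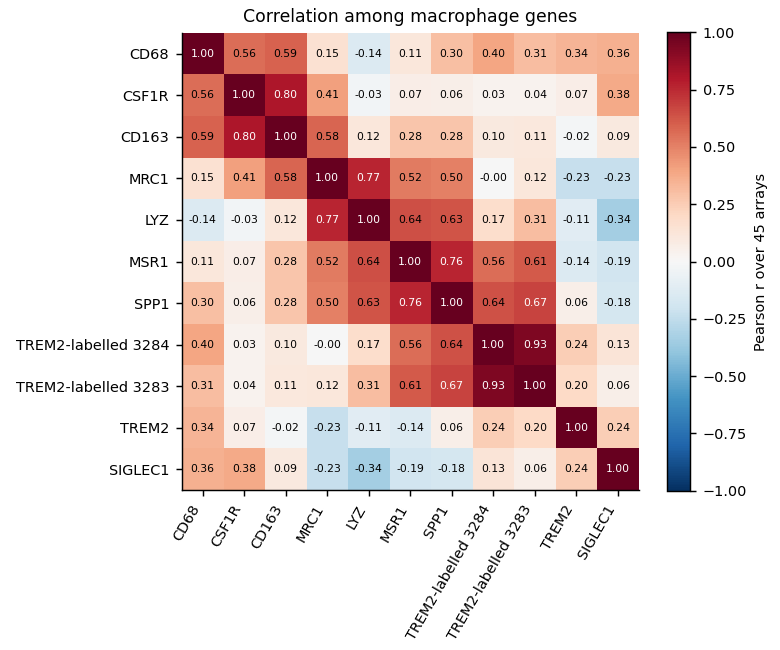
Pearson correlations over the 45 arrays among the brightest tested probe sets of 9 macrophage genes and the 2 TREM2-labelled probe sets with the second identifier; colour runs from -1 (blue) to 1 (red). CD68, CSF1R and CD163 are correlated, as are MRC1, LYZ, MSR1 and SPP1, with the TREM2-labelled pair linked to MSR1 and SPP1; MRC1 is also correlated with CD163 (0.58), so the groups overlap.

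Among the brightest probe sets of the macrophage genes, that of CD163 had the largest correlation with leptin over the arrays, and a negative one. The brightest probe sets had Pearson r and Spearman rho with LEP of -0.43 and -0.44 for CD163, -0.28 and -0.27 for MRC1, -0.18 and -0.21 for CD68 and -0.18 and -0.16 for CSF1R. They were 0.25 and 0.25 for MSR1, 0.21 and 0.23 for SIGLEC1, 0.12 and 0.16 for SPP1, 0.03 and 0.04 for LYZ and -0.11 and 0.08 for TREM2. The other CD163 probe sets had r = -0.32 and -0.28, and the TREM2-labelled CfaAffx.3284 and CfaAffx.3283 had 0.37 and 0.30. Of the 20 tested probe sets 13 had a negative r, with a median of -0.08. Over all tested probe sets the median was 0.00, 50.1% had a negative r and 14.7% had an r below -0.3. An r below -0.3 with LEP is therefore not rare on this array.

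The CD163 correlation was negative in 5 of the 6 batches (-0.59 to 0.06), at -0.49 over the 25 ad libitum arrays and -0.58 over the 20 control arrays, and at -0.50 after the mean of each feeding group and week was removed. LEP itself had r = 0.50 with the adipocyte and -0.34 with the fibroblast markers, in which CD163 had the opposite signs, and the part of tissue makeup in the CD163 value was not tested. For MSR1 r was 0.01 when those means were removed, and SPP1 then had -0.16. MRC1 then had -0.48 and CD68 -0.38. Leaving out the 2 arrays farthest from the median of LEP gave -0.47 for CD163 and 0.11 for MSR1.

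**Figure D5:**
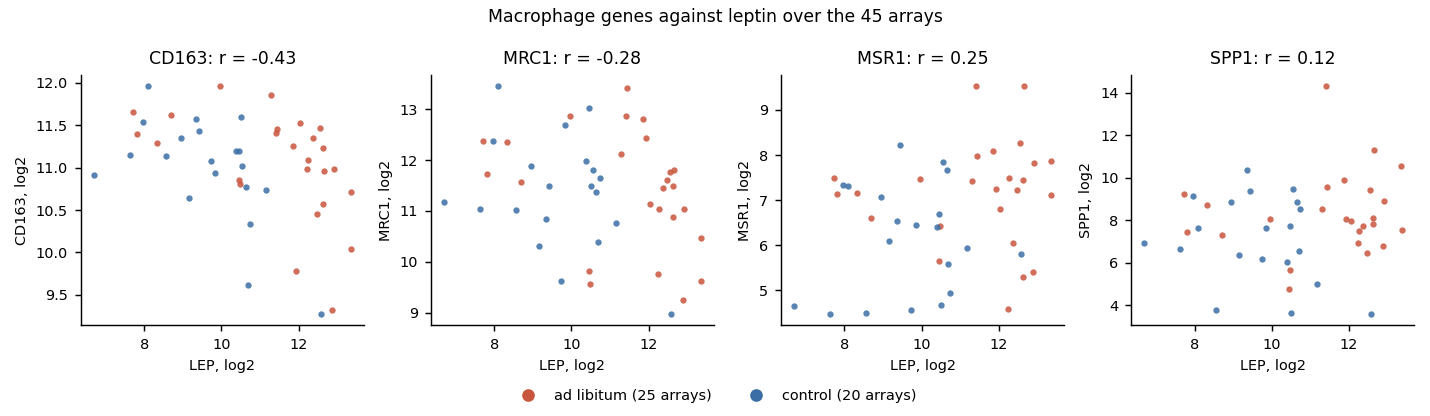
Log2 values of CD163, MRC1, MSR1 and SPP1 (y axes) against LEP (x axis) over the 45 arrays, 25 of ad libitum and 20 of control dogs; each point is 1 array. CD163 is lower on arrays with high LEP (r = -0.43), MRC1 less so (r = -0.28), and MSR1 and SPP1 scatter widely at every LEP level (r = 0.25 and 0.12).

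The 9 dogs are the independent units, so the relation was tested on their means over 5 arrays, for 9 genes. By a 2-sided exact permutation test 0 of 9 genes passed after Benjamini-Hochberg adjustment, and 0 had an unadjusted p below 0.05 for Pearson's r. MSR1 had r = 0.65 (exact permutation p = 0.0564, adjusted 0.204, rho = 0.53 with p = 0.148), and SPP1 r = 0.63 (exact permutation p = 0.0544, adjusted 0.204, rho = 0.73 with p = 0.0311 and adjusted 0.280). TREM2 had r = -0.63 (exact permutation p = 0.0679, adjusted 0.204) with rho = -0.22. Without the 2 dogs farthest from the median of LEP these values became 0.27, 0.35 and 0.10. Leaving out extreme LEP values narrows the range of LEP, which tends to shrink r by itself. Whether the relations rest on those dogs therefore cannot be told from this. Dog means without the 10 arrays with muscle gave MSR1 r = 0.82 (exact permutation p = 0.00497, adjusted 0.0447), the one gene to pass in that setting. Of those arrays, 3 ad libitum and 2 control ones were from week 0, so these means no longer cover the same weeks in each dog. The 5 ad libitum dogs had the highest mean LEP, 10.50 to 11.87 against 7.79 to 10.44 in controls, and neither group holds 6 dogs. A relation with LEP between dogs and a difference between the feeding groups therefore cannot be told apart. The same exact permutation test within week 24 (9 dogs, 1 batch) passed MRC1 alone, with r = -0.83 (p = 0.00497, adjusted 0.0447). Its rho was -0.73 (adjusted 0.140), and without the 2 farthest LEP values its r was -0.65 (exact permutation p = 0.102). By that test CSF1R had r = -0.72 (p = 0.0278) and SIGLEC1 0.74 (p = 0.0225), both adjusted 0.0834. Relation and group difference cannot be told apart there either. At week 24 LEP itself was higher in ad libitum dogs by 2.70 (SE 0.72, limma adjusted p = 0.0233), called in 12 of 19 alternatives, in which the difference ran from 2.14 to 3.02 and the adjusted p up to 0.298. Of the ad libitum dogs, dog 5, the highest in SPP1, CD68 and LYZ, had the lowest LEP at 11.41. The same array had the lowest adipocyte marker mean of the group (11.71), the highest fibroblast mean (13.38) and the highest actin value (4.47). The part of these in its gene values was not tested.

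Other genes of macrophages were read from 5 lists, each at the brightest probe set. In the list around TREM2 and CSF1 signalling, 2 of 8 tested genes were higher and 0 lower in ad libitum fat at week 24, with a median of 0.29. APOE, the apolipoprotein that is also a ligand of TREM2, was 15.04 ± 0.32 in ad libitum (SD, n = 5) and 13.95 ± 0.55 in control dogs (SD, n = 4), without overlap, a difference of 1.09 (limma adjusted p = 0.00989). IL34, the other ligand of CSF1R, was 10.08 ± 0.55 in ad libitum and 8.99 ± 0.28 in control dogs, with overlap, a difference of 1.09 (limma adjusted p = 0.0183). In the list of lipid-associated macrophage and lysosome genes, 2 of 28 were higher and 0 lower, with a median of 0.16. LAMP2, a lysosomal membrane protein, differed by 0.77 (limma adjusted p = 0.0135) and PLIN2, a lipid droplet coat protein, by 0.83 (limma adjusted p = 0.0238), both without overlap. How many of all probe sets part the groups without overlap, as APOE, LAMP2 and PLIN2 do, was not counted. APOE, PLIN2 and LAMP2 are made by adipocytes as well. Adipocyte markers at week 24 averaged 13.30 ± 0.90 in ad libitum fat (SD, n = 5). In control fat they averaged 12.34 ± 0.58 (SD, n = 4). The part of this marker shift in the APOE, IL34, LAMP2 and PLIN2 differences was not tested. The counts of 2 in 8 and 2 in 28 stand beside 5.46% of all tested probe sets.

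The remaining lists had no called gene at week 24. Of 20 general macrophage and monocyte genes limma called 0, with 3 at an unadjusted p below 0.05 and a median of 0.14, and the smallest p were those of ITGAX (CD11c), 1.48 (limma adjusted p = 0.0827), and FCGR1A, 1.13 (limma adjusted p = 0.164). Of 15 resident and scavenger genes it called 0, with 2 below 0.05 and a median of -0.59. The smallest p in that list belonged to F13A1 and STAB1, both at -0.90 (limma adjusted p = 0.153 and 0.206). Of 18 activation genes it called 0, with 2 below 0.05 and a median of 0.24. Here NOS2, the inducible nitric oxide synthase, differed by 1.51 (limma adjusted p = 0.127), and the chemokine gene CCL3 by 1.07 (limma adjusted p = 0.156). The median of all tested probe sets in this comparison was 0.01. In the other comparisons between feeding groups 0 genes of the 5 lists were called. Of all probe sets 0%, 0.0132%, 1.42% and 0.00441% were called at weeks 0, 4, 8 and 12, and 0% to 0.022% for the feeding effects. Apart from week 8, these counts therefore say nothing about the lists.

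The genes most like the members were sought by the correlation with the mean of the 9 standardised macrophage genes over the 45 arrays. The 8 closest were BPI (r = 0.87), CYBB (0.87), CTSS (0.86), B2M (0.83), SMPDL3A (0.81), BCL2A1 (0.80), CTSH (0.79) and NCKAP1L (0.78). CYBB encodes the membrane subunit of the phagocyte oxidase, CTSS and CTSH lysosomal cathepsins, and B2M the light chain of MHC class I. After batch, feeding group and week means were removed these correlations were 0.77 to 0.89.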

How the data were processed

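The authors deposited GCRMA expression values, 1 per probe set and array, a method that the submitters' processing notes name with no version. The scale is read here as log2, since the log base is not stated, and any batch correction or filter by the authors is not given in the sources used here. RNA was extracted with Trizol and labelled with biotin by the Affymetrix 1-cycle 3′ method, per the labels' protocols. The number of arrays limits the precision.

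Gene symbols and identifiers came from the platform table, and the identifiers of 19 of the 23 member probe sets were found in a RefSeq gene table. Those of CD68 and of the TREM2-labelled pair were not. The tests used limma 3.58.1 with statmod 1.5.0 under R 4.3.3. All 22690 probe sets above 4 on at least 4 arrays were fitted with 10 means (feeding group by week), a batch term for batches 1 to 5 and the dog as a random block, with 31 residual degrees of freedom. Batch 6 held all week-24 arrays. P-values were adjusted by Benjamini-Hochberg over all 22690. The animal ids in the labels pair the arrays of a dog across weeks; the correlation within dogs was 0.00562. Differences between dogs were tested jointly with 7 dog terms. Correlations used numpy 2.4.6 and scipy 1.17.1. The fit was tested on simulated data.

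Members and lists were chosen with earlier results of these data known. All members are named; of the related lists, genes called between feeding groups, otherwise the 2 with the smallest p. Genes called in single groups of those lists, and dogs singled out, were chosen after their values were seen.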

Additional observations from a re-analysis of the deposited data

Results flagged for a closer look

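In 120 groups of 4 or 5 arrays, the brightest probe set of each member gene, the TREM2-labelled pair and LEP were screened for a single dog far from the others of its group, and 15 values stood out by Dixon's test, of which chance gives about 1 in 20 groups.

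Ad libitum dog 5 at week 24 had the highest LYZ of all arrays, 14.92, against 12.52 to 13.07 in the other 4 ad libitum dogs. Ad libitum dog 8 had MRC1 of 9.55 at week 0, against 11.56 to 12.38. Ad libitum dog 2 had low CD163 at weeks 4 (9.78, against 10.99 to 11.35) and 8 (9.32, against 10.71 to 11.23). Ad libitum dog 7 had SIGLEC1 of 4.33 at week 8, against 5.29 to 5.44. For SPP1, control dog 4 stood at 8.54 at week 24, against 7.66 to 7.74.

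The TREM2-labelled pair and TREM2 itself gave 8 of the 15. Control dog 9 at week 12 was high in Cfa.5715 (7.54), CfaAffx.3284 (5.20) and CfaAffx.3283 (3.63), and the same array had the highest T and NK cell marker mean of all arrays, 7.63. The part of that in these values was not tested. Ad libitum dog 7 had CfaAffx.3284 of 4.96 at week 12. The others were small steps near background or within a narrow group, with CfaAffx.3283 at 3.58 in ad libitum dog 2 at week 0, 3.43 in control dog 3 at week 24 and 2.00 in control dog 9 at week 8, and Cfa.5715 at 6.87 in control dog 4 at week 0.

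LEP read 10.45 at week 8 on the array given as ad libitum dog 5, against 12.62 to 13.36 in the other ad libitum dogs. This is 1 of the 2 arrays that matched another dog.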

How the results depend on the processing

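Settings tried were other detection filters, quantile normalization, no batch term, a variance trend, actin as a covariate, the dog as a fixed replicate block or no replicate block, and leaving out each dog, the 2 mismatched week-8 arrays or the arrays with muscle. The 2 members called at week 24 became 0 without the arrays with muscle and 0 with the actin covariate, and the 2 called from week 0 to week 24 in ad libitum dogs became 0 calls without the arrays with muscle, with rises of 4.06 and 3.81. With the dog as a fixed replicate block, as with no replicate block, the differences stayed 3.96 and 3.57, and the block changed no other call. Without a batch term 1 member (SIGLEC1) was called from week 0 to week 8 in ad libitum dogs. Leaving out single dogs gave 0 to 1 calls at week 8 between groups (1 without control dog 1, a CSF1R probe set, and 1 without ad libitum dog 7), 0 to 2 for the feeding effect at week 24, 0 to 5 for week 8 against week 0 in ad libitum dogs (5 without dog 8), and 0 to 1 between dogs. The calls gained by leaving out a dog came where that dog read against the difference, so they are no support. Without the arrays with muscle 1 gene, MSR1, passed with LEP over dog means (r = 0.82, exact permutation p = 0.00497, adjusted 0.0447). Those means no longer cover the same weeks in each dog. Calls at week 24 rest on values under the detection limit in controls, and on few dogs.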

Other observations

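Genes of the 5 lists also changed from week 0 within the ad libitum dogs, with values chosen after they were seen. At week 12 the chemokine gene CCL5 was 8.90 ± 2.17, against 5.14 ± 0.13 at week 0 (SD, n = 5 each), without overlap, and rose by 3.82 (limma adjusted p = 0.0355), where 0.802% of all probe sets were called. How many of all probe sets part these weeks without overlap was not counted. T and NK cells also make CCL5, and their marker mean was 5.62 ± 0.84 at week 12, against 4.15 ± 0.26 at week 0, in the same dogs, and its part in the CCL5 change was not tested. ABCG1, a cholesterol exporter, rose by 1.08, and VEGFA, the endothelial growth factor, fell by 1.29. At week 24 APOE (0.89), PLIN2 (0.75) and CCL4 (1.27) rose and VEGFA fell by 0.95, across a change of batch, where 4.78% of all probe sets were called. At week 8 GAS6, a ligand of the receptors that clear dying cells, rose by 0.97, and ABCA1 and SELENOP fell by 1.29 and 1.85, where 6.73% of all probe sets were called. In control dogs 0 genes of the 5 lists were called by limma at weeks 4, 8, 12 and 24, where 0.00441%, 0%, 0% and 7.92% of all probe sets were called, so the first 3 counts say nothing about the lists. At an unadjusted p below 0.05 there were 0 to 9 genes a list.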
